A study of Mus musculus with 11 samples.

Results

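The genes described here are the expressed Zfp genes of a glucagon-producing mouse cell line. They are the genes whose symbol is Zfp followed by a number and whose mean level over all 11 libraries was 5 CPM or more, CPM being a gene's count scaled to a common library size. Of 374 such symbols in a table of 53947 gene rows, 251 met the rule, 77 more were tested but lay under 5 CPM, and 7 had no count in any library. The members were thus chosen by their mean level, so their levels are given as a description, and the rule used no difference between groups. The members just inside the threshold were Zfp809 at 5.26, Zfp560 at 5.22 and Zfp963 at 5.10 CPM, and Zfp39 at 4.93, Zfp991 at 4.90 and Zfp54 at 4.89 CPM lay just outside it.

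The cells were alphaTC1-6, an established mouse pancreatic alpha cell line, and messenger RNA was sequenced in 3 groups. In each group the cells were reverse transfected, that is, transfected while being plated, at 70% confluency and were collected 72 h later. The scramble control had 3 libraries, knockdown (KD) of Mettl3 had 4 and KD of Mettl14 had 4. Every group was thus transfected, and the labels used here do not give the kind of reagent. Nothing in the labels says that the replicates of a group were grown separately, so the p-values rest on a spread that may be only technical.

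The methyltransferase complex that writes N6-methyladenosine (m6A) into messages has METTL3 as its catalytic subunit, and METTL14 as the partner that helps to hold the RNA. The mark lies mostly in long internal exons, near stop codons and in last exons, and marked transcripts are often shorter lived. Most Zfp genes encode DNA-binding proteins built from repeated C2H2 fingers, in which a pair of cysteines and a pair of histidines hold a zinc ion. Many carry a KRAB domain, which recruits the corepressor TRIM28 and the histone methyltransferase SETDB1 to silence transposable elements and nearby genes. Others act in chromatin complexes, and a few bind RNA or act on ribosomes. m6A itself was not measured in these libraries.

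The members share a gene structure that the symbol rule did not use. In the GENCODE M21 annotation of build GRCm38, the median last exon of the members was 2558 bases long, against 1267 over all genes tested, and a median of 83.4% of the members' coding bases lay in the last exon, against 11.3%. Their reference proteins held 2597 finger patterns in all, with a median of 10 and a maximum of 36 per member. A KRAB pattern was found in 113 of the 251, and 10 or more fingers in 133. Among all 21899 protein-coding genes of the reference, 1.32% held the KRAB pattern and 1.40% held 10 or more fingers. Fingers are joined by a conserved threonine, glycine, glutamate, lysine and proline linker, of which the members held 1007 copies in 180 proteins. The first unit of a finger and its linker in 3 members with a KRAB pattern is printed to show how these last exons are built, with the 15 bases that code for the linker in capitals.
Zfp27: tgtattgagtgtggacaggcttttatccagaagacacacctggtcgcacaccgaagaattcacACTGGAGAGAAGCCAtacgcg
Zfp46: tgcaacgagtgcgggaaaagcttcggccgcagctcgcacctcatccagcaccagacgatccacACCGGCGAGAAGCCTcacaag
Zfp51: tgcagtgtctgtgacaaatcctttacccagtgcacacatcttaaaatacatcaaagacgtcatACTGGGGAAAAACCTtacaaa
Each unit lies in the coding part of the last exon, at chr7:29895501-29895584 on the minus strand for Zfp27 (exon 5 of 5), at chr4:136290388-136290471 on the plus strand for Zfp46 (exon 3 of 3) and at chr17:21463854-21463937 on the plus strand for Zfp51 (exon 5 of 5). The linker of Zfp51 holds AAACC, one form of the short context in which the writer complex methylates adenosine. Of the 1007 linkers, 609 (60.5%) held AAACC on the RNA strand, and linkers held 38.3% of all AAACC copies in the members' coding sequence. AAACC occurred 3.21 times per kilobase of coding sequence in the members, 5.27 times in members with the KRAB pattern and 1.10 times over all genes tested.

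GGACT is another form of that context and the one the complex is best known to prefer. It occurred in the last exon of 187 of the 251 members (74.5%) and of 67.3% of all genes tested that have a reference transcript. Per kilobase of last exon it was less dense in the members, at 0.748 copies against 0.987. A window of 29 bases around the copy nearest to the stop codon is printed for 3 members that were lower and 4 that were higher after Mettl3 KD, with GGACT in capitals. They are among the members with the largest changes in each direction, and Zfp219 and Zfp40, which had changes of the same size, have none in their last exon.
Zfp395: ccagcgcttcctGGACTgagcctgcctca
Zfp292: ataatccagataGGACTgttttaaaagaa
Zfp362: ctgcaagattctGGACTgttctggtggca
Zfp691: ctgaatgcgggcGGACTttcagtgatatc
Zfp622: aagtagtttttaGGACTgcctcacagtta
Zfp82: ctatgactgcaaGGACTgtgggaaagcct
Zfp593: atcccaaccaggGGACTccggggctctgc
The first 3 were lower and the last 4 higher. The windows of Zfp292 (chr4:34805000-34805028, minus strand), Zfp691 (chr4:119170329-119170357, minus strand) and Zfp82 (chr7:30056461-30056489, minus strand) are coding. That of Zfp395 (chr14:65396312-65396340, plus strand) spans the stop codon. Those of Zfp362 (chr4:128774321-128774349, minus strand), Zfp622 (chr15:25997840-25997868, plus strand) and Zfp593 (chr4:134244259-134244287, minus strand) lie in the 3′ UTR. The same letters stood in the last exons of members that were lower and of members that were higher, and a match says nothing of whether the adenosine was methylated.

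The targeted genes followed the labels. Mettl3 stood at 14, 14.7 and 16 CPM in the scramble libraries, at 5.06, 5.01, 5.98 and 5.30 CPM after Mettl3 KD and at 15.9, 14.2, 16.5 and 15 CPM after Mettl14 KD. Mettl14 stood at 25.4, 23.5 and 26.8 CPM in scramble, at 29.1, 30.5, 29.7 and 28.1 CPM after Mettl3 KD and at 14.9, 14.2, 15.5 and 13.9 CPM after Mettl14 KD. Mettl3 fell by 1.48 ± 0.08 (SE) on the log2 scale in its own KD and Mettl14 by 0.78 ± 0.06 in its own, and Mettl14 was 0.22 ± 0.06 higher after Mettl3 KD (adjusted p = 6.86e-11, 8.78e-09 and 0.00494, quasi-likelihood test of edgeR, Benjamini-Hochberg adjustment over all 14133 genes tested).

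Libraries held 19576784 to 22406686 counts. The alpha cell markers were present in every library, with Gcg, the glucagon gene, at 28738 to 38728 CPM, while the hormone genes Ins1, Ins2, Sst and Ppy stayed at 0.14 CPM or less. Of the beta cell markers, Nkx6-1 was present, at 48.9 to 72.0 CPM. Scramble replicate 2 stood apart: it had the fewest counts, its 6 lung and blood markers summed to 103 CPM against 2.16 to 5.39 CPM in the other libraries, and short transcripts, those under 1000 bases, differed from the other libraries by a median of -0.12 on the log2 scale. Its part in the results was not tested beyond the fits without it, whose values are given beside some of the counts and members they change.

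Summed over the 251 members, the level was nearly the same in all groups: 7620 to 7677 CPM in scramble, 7500 to 7602 CPM after Mettl3 KD and 7540 to 7626 CPM after Mettl14 KD. Single members differed widely in level. The median member stood at 19.6 CPM, and Zfp106, which binds RNA, was the highest at 219 CPM. Per kilobase of reference transcript, the scale on which genes can be compared, Zfp207, a factor of spindle assembly and splicing, led at 71.1 CPM per kilobase, followed by Zfp146 at 44.9 and Zfp346 at 39.9, while the median member had 5.69. Most replicates of a group were close: the median within-group SD of log2(CPM + 0.5), pooled over the groups, was 0.07 over the members. Scramble replicate 2 was the exception. Over well-counted genes, its chi-square per degree of freedom was 17.1 and 15.3 against the other scramble libraries. All other replicate pairs gave 2.27 to 4.37.

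After Mettl3 KD, 22 of the 251 members were called higher and 28 lower than in scramble at an adjusted p under 0.05. That is 19.9% of the members, against 31.3% of all genes tested (15.5% higher and 15.8% lower), and against 38.1% of the 10428 genes tested that, like the members, had a mean of 5 CPM or more. After Mettl14 KD, 9 members were called higher and 24 lower, 13.1% of them, against 20.9% of all genes tested (10.1% higher and 10.8% lower) and 25.9% of those at 5 CPM or more. The share of members called was below that of all genes at 5 CPM or more in both KDs; the difference was not tested, and the members were lower in level, with a median of 19.6 CPM against 42.2 CPM. The changes were small. After Mettl3 KD 16 members moved past 1.2-fold, of which 14 were called, and after Mettl14 KD 9 did, of which 5 were called. These were 6.37% and 3.59% of the members, against 13.7% and 8.46% of all genes tested at 5 CPM or more. The difference in these shares was not tested. The median log2 fold change over the members was -0.01 after Mettl3 KD and -0.02 after Mettl14 KD, and over all genes tested both medians lay within 0.01 of 0. In bulk RNA, less of a transcript in each cell and fewer cells with it cannot be told apart.

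**Figure D1:**
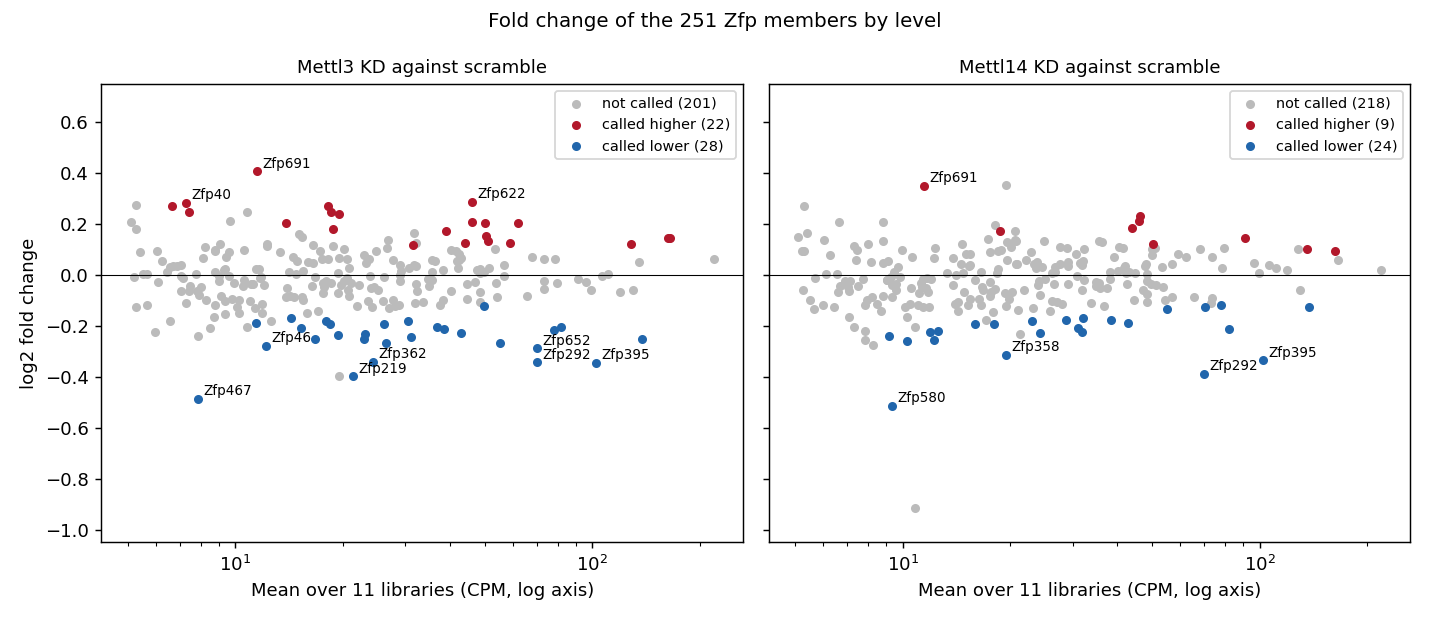
Each point is 1 of the 251 members, with its mean level over the 11 libraries on a log axis (CPM) and its log2 fold change against scramble, after Mettl3 KD (left) and Mettl14 KD (right). Red points were called higher and blue points lower by edgeR's quasi-likelihood test. The members lie within 0.5 of 0 except Zfp580 at -0.52 and Zfp968 at -0.92, both on the right; Zfp968 was not called.

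Both comparisons use the same 3 scramble libraries, so their calls are not independent. With that in mind, 15 members were called lower in both (5.98%, against 8.5% of all genes tested), 7 higher in both (2.79%, against 7.43%) and 61 in either (24.3%, against 36.1%). None was called in opposite directions by edgeR, by DESeq2 or by limma-voom, or passed an unadjusted p under 0.05 in opposite directions; over all genes tested 0.113% were called so. Of the 50 calls after Mettl3 KD, 32 held in each of the 11 fits that left out 1 library, and of the 33 after Mettl14 KD, 16 did. The number higher after Mettl3 KD was 14 without Mettl3 KD replicate 3, and the number higher after Mettl14 KD was 5 without Mettl14 KD replicate 1 or replicate 3. Without scramble replicate 2 there were 16 higher and 28 lower after Mettl3 KD, and 9 higher and 21 lower after Mettl14 KD, but 14 of the 50 calls and 10 of the 33 calls were lost there and others took their place. The libraries of the KD and of scramble did not overlap for 68 members after Mettl3 KD (27.1%), against 35.5% of all genes tested, and for 50 after Mettl14 KD (19.9%), against 28.9%.

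Of 12 members that bind RNA or act on ribosomes, 6 were called higher and none lower after Mettl3 KD, and 4 higher and none lower after Mettl14 KD. Over all genes tested, 15.5% were called higher and 15.8% lower after Mettl3 KD, and 10.1% and 10.8% after Mettl14 KD. The 12 stood high in level, with a median of 48.1 CPM, and 50% and 33.3% of them were called. Of all genes tested, 36.6% and 23.9% were called at 20 to 50 CPM and 44.8% and 32.0% at 50 CPM or more. The list was chosen with earlier results of these data known, and the difference was not tested. The median log2 fold change of the 12 was 0.09 and 0.08. Zfp622, the counterpart of a yeast factor that matures the large ribosomal subunit, stood at 43.6, 36.2 and 41.2 CPM in scramble, at 47.9, 49.97, 49.3 and 50.1 CPM after Mettl3 KD and at 49.4, 49.1, 48.4 and 42.9 CPM after Mettl14 KD. All Mettl3 KD libraries lay above all scramble libraries, while 1 Mettl14 KD library lay below the highest scramble library. Zfp622 rose by 0.29 ± 0.06 (SE) and 0.23 ± 0.06 on the log2 scale (edgeR adjusted p = 0.000807 and 0.00741), and by 0.22 and 0.16 without scramble replicate 2. Zfp593, whose yeast counterpart helps to export the large subunit from the nucleus, stood at 15.7, 17.7 and 17.6 CPM in scramble and at 20.1, 19.4, 20.1 and 20.8 CPM after Mettl3 KD, with no overlap. It rose by 0.24 ± 0.06 there (edgeR adjusted p = 0.00324), and after Mettl14 KD, at 17.7, 19.2, 17.7 and 18 CPM, it was not called (0.09 ± 0.06).

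Zfp346, a nucleolar protein that binds double-stranded RNA, stood at 47.4, 45.4 and 46.1 CPM in scramble, at 54.4, 54.0, 51.0 and 53.6 CPM after Mettl3 KD and at 50.5, 48.9, 47.7 and 51.7 CPM after Mettl14 KD. Both KD groups lay wholly above scramble, and the rise of 0.20 ± 0.04 after Mettl3 KD passed the test (edgeR adjusted p = 0.000676) while 0.10 ± 0.04 after Mettl14 KD did not (0.0813). Zfp326, a subunit of a complex that couples transcription to splicing, stood at 40.3, 40.2 and 41.7 CPM in scramble, at 43.1, 46.0, 43.7 and 44.8 CPM after Mettl3 KD and at 44.1, 48.9, 46.2 and 45.6 CPM after Mettl14 KD, again with no overlap. It rose by 0.12 ± 0.04 and 0.18 ± 0.04 (edgeR adjusted p = 0.0350 and 0.00509), and the edgeR call after Mettl3 KD was lost without scramble replicate 2 (0.11, adjusted p = 0.0649), scramble replicate 1 or Mettl3 KD replicate 2 or 4. The nucleolar protein Zfp330 was higher by 0.21 ± 0.07 in both KDs (edgeR adjusted p = 0.0268 and 0.0369), with scramble replicate 2 at 35.1 CPM and the other scramble libraries at 44.7 and 44.0 CPM. Without that library both changes were 0.11 and neither was called by edgeR (adjusted p = 0.0797 and 0.104). The call after Mettl3 KD was also lost without any 1 of Mettl3 KD replicates 2 to 4, and that after Mettl14 KD without Mettl14 KD replicate 1, 2 or 4 and without Mettl3 KD replicate 3 or 4. The remaining calls of the list were Zfp706 after Mettl3 KD (0.14 ± 0.03) and Zfp638, an RNA-binding protein of nuclear speckles, after Mettl14 KD (0.10 ± 0.03), a call lost without scramble replicate 1 or 3 or Mettl14 KD replicate 1 or 3. Not called in either KD were Zfp36, which directs the decay of AU-rich messages, Zfp598, a sensor of collided ribosomes, Zfp106, Zfp207 and Zfp830. Without scramble replicate 2 the list had 4 members higher after Mettl3 KD and 3 after Mettl14 KD, with none lower; without Mettl14 KD replicate 1 it had 2 after Mettl14 KD. In edgeR's unadjusted test at 0.05, none of the 12 was lower after Mettl3 KD and 1 was after Mettl14 KD; neither DESeq2 nor limma-voom called any lower.

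**Figure D2:**
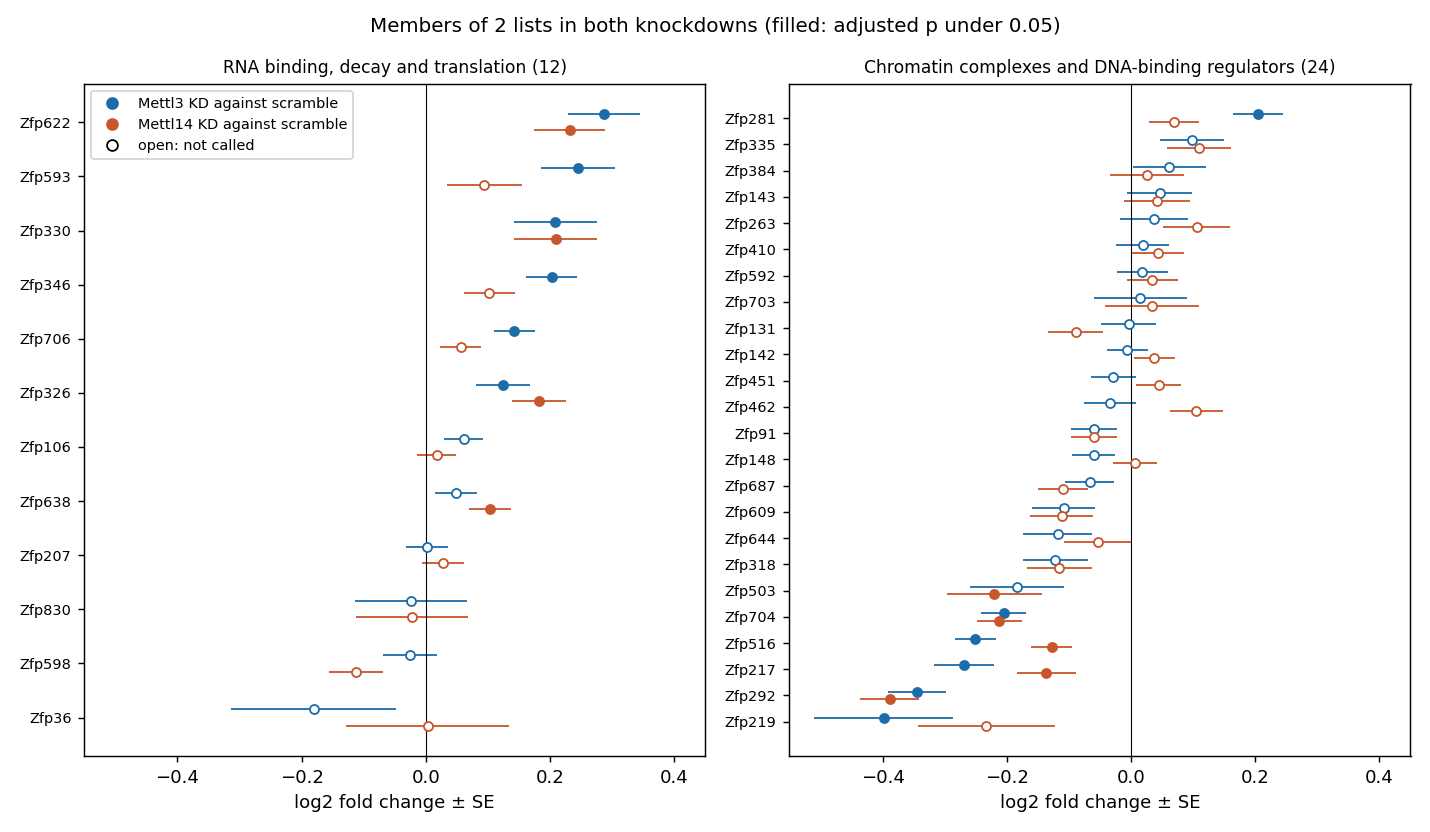
log2 fold change against scramble, with its SE, of the 12 members that bind RNA or act on ribosomes (left) and the 24 members in chromatin complexes or with known DNA targets (right), after Mettl3 KD (blue) and Mettl14 KD (orange). Filled points passed edgeR's test: on the left all filled points lie above 0, on the right all lie below 0 except Zfp281.

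Of 24 members in chromatin complexes or with known DNA targets, 18 were not called after Mettl3 KD and 19 after Mettl14 KD. The shares called, 25% and 20.8%, were near or below the 31.3% and 20.9% of all genes tested. Of the 24, 5 were called lower and 1 higher after Mettl3 KD, and 5 lower and none higher after Mettl14 KD; in edgeR's unadjusted test at 0.05, 2 were higher after Mettl14 KD, and neither DESeq2 nor limma-voom called any higher. Their medians were -0.05 and -0.02. Zfp292, a very large DNA-binding protein whose last exon holds 8931 bases, stood at 84.6, 86.7 and 79.8 CPM in scramble, at 61.9, 71.0, 65.4 and 65.2 CPM after Mettl3 KD and at 65.1, 60.4, 67.8 and 62.3 CPM after Mettl14 KD. Both KD groups lay wholly below scramble. It fell by 0.34 ± 0.05 and 0.39 ± 0.05 on the log2 scale (edgeR adjusted p = 1.22e-05 and 4.98e-06). Zfp704 fell by nearly the same amount in both: from 93.9, 88.4 and 90.5 CPM in scramble to 77.0, 76.4, 80.8 and 81.4 CPM and to 79.0, 78.6, 79.7 and 76.9 CPM, with no overlap, or by 0.21 ± 0.04 in each (edgeR adjusted p = 0.000174 and 0.000232).

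Zfp516, which recruits the demethylase LSD1 in brown fat, stood at 157, 151 and 147 CPM in scramble, at 128, 126, 129 and 127 CPM after Mettl3 KD and at 134, 140, 139 and 142 CPM after Mettl14 KD, so that the 3 groups did not overlap. It fell by 0.25 ± 0.03 and 0.13 ± 0.03 (edgeR adjusted p = 7.11e-06 and 0.00793). Zfp217, a member of LSD1 and CoREST complexes, stood at 63.0, 54.7 and 65 CPM in scramble, at 48.2, 51.2, 51.4 and 51.8 CPM after Mettl3 KD and at 55.7, 56.3, 54.8 and 55.1 CPM after Mettl14 KD. It lay wholly below scramble after Mettl3 KD only, falling by 0.27 ± 0.05 (edgeR adjusted p = 0.000241); its call after Mettl14 KD (-0.14 ± 0.05, adjusted p = 0.0481) held only in the fits without Mettl3 KD replicate 1 and without scramble replicate 2 among the 11 that left out 1 library. Zfp219, a partner of Sox9 in cartilage, stood at 23.2, 30.5 and 21.2 CPM in scramble, at 20.4, 16.5, 19.2 and 19.3 CPM after Mettl3 KD and at 21.3, 19.8, 22.1 and 21.3 CPM after Mettl14 KD. It fell by 0.40 ± 0.11 after Mettl3 KD (edgeR adjusted p = 0.0182), and scramble replicate 2 was its highest library: without that library the fall was 0.23 and was still called.

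The 1 member of the list that rose was Zfp281, a repressor known from the exit from pluripotency, at 58.1, 59.4 and 56.4 CPM in scramble and 66.6, 66.7, 66.6 and 67.0 CPM after Mettl3 KD (0.20 ± 0.04, edgeR adjusted p = 0.000597). Its Mettl14 KD libraries, at 63.8, 57.0, 59.7 and 62.6 CPM, overlapped scramble. Zfp503, which acts in the embryonic striatum, was called lower after Mettl14 KD (-0.22 ± 0.08, edgeR adjusted p = 0.0447) but not without scramble replicate 2 (-0.16) or 3, nor without Mettl14 KD replicate 1, 2 or 3 or Mettl3 KD replicate 4. Zfp217, Zfp281 and Zfp503 are named to complete the counts of the list and were chosen after their values were seen. The number lower after Mettl14 KD was 3 without Mettl14 KD replicate 1, 2 or 3 and 3 without Mettl3 KD replicate 4; without scramble replicate 2 it was 6 in each KD, with 2 higher after Mettl14 KD.

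Other members with large falls after Mettl3 KD lay outside these lists. Zfp467, a 12-finger protein known from fat and bone precursors, stood at 8.75, 9.60 and 9.56 CPM in scramble, at 6.45, 6.66, 6.83 and 6.59 CPM after Mettl3 KD and at 8.10, 8.88, 8.06 and 6.92 CPM after Mettl14 KD. The Mettl3 KD libraries lay below all others, and the Mettl14 KD libraries overlapped scramble. It fell by 0.49 ± 0.09, or 1.40-fold, after Mettl3 KD (edgeR adjusted p = 0.000221), and the difference after Mettl14 KD was not called (-0.22 ± 0.08). Zfp395, which binds the promoter of the huntingtin gene, fell alike in both KDs: from 123, 123 and 117 CPM in scramble to 96.2, 92.7, 95.8 and 95.3 CPM and to 94.8, 91.7, 101 and 95.4 CPM. With no overlap, it fell by 0.35 ± 0.04 and 0.34 ± 0.04 (edgeR adjusted p = 3.38e-07 and 8.70e-07).

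Zfp362, a paralogue of Zfp384, stood at 26.8, 29.5 and 27.7 CPM in scramble, at 21.4, 23.2, 21.3 and 22.3 CPM after Mettl3 KD and at 23.3, 24.9, 23.8 and 23.4 CPM after Mettl14 KD. Neither KD group overlapped scramble, and it fell by 0.34 ± 0.05 and 0.23 ± 0.05 (edgeR adjusted p = 4.53e-05 and 0.00342). Zfp652, a repressor that works with ETO-family corepressors, stood at 81.8, 71.4 and 79.998 CPM in scramble, at 62.5, 62.4, 66.2 and 63.7 CPM after Mettl3 KD and at 69.8, 72.2, 74.6 and 68.3 CPM after Mettl14 KD. It fell by 0.29 ± 0.05 after Mettl3 KD (edgeR adjusted p = 5.87e-05), whereas its Mettl14 KD libraries overlapped scramble and the call there (-0.13, adjusted p = 0.0483) held only in the fits without scramble replicate 2 or Mettl14 KD replicate 3 among the 11 that left out 1 library. Zfp358 was lower in both (-0.24 ± 0.07 and -0.32 ± 0.07, edgeR adjusted p = 0.0161 and 0.00385); without scramble replicate 2 the first was -0.16 and not called, nor was it without Mettl3 KD replicate 2 or 4.

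Among the called members, Zfp580 had the largest fall after Mettl14 KD. This 3-finger member, whose reference transcript of 693 bases is the shortest of the 251, stood at 9.97, 13.1 and 9.47 CPM in scramble, at 10.7, 9.79, 9.02 and 10.6 CPM after Mettl3 KD and at 8.74, 8.01, 7.16 and 6.28 CPM after Mettl14 KD. All Mettl14 KD libraries lay below all others, and Mettl3 KD overlapped scramble. It fell by 0.52 ± 0.12 after Mettl14 KD (edgeR adjusted p = 0.00584), and by 0.37 without scramble replicate 2, its highest library, where it was still called.

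Among the called members whose libraries did not overlap scramble, Zfp691 had the largest rise in both KDs. It stood at 10.02, 9.0 and 9.29 CPM in scramble, at 11.4, 13.1, 12.1 and 13.5 CPM after Mettl3 KD and at 11.7, 11.8, 12.4 and 12.2 CPM after Mettl14 KD, with no overlap between scramble and either KD. It rose by 0.41 ± 0.07 and 0.35 ± 0.07 on the log2 scale, or 1.33-fold and 1.27-fold (edgeR adjusted p = 0.000287 and 0.00214). Zfp275 rose by 0.15 ± 0.04 and 0.12 ± 0.04, Zfp868 by 0.18 ± 0.06 and 0.17 ± 0.06 and Zfp664 by 0.15 ± 0.03 and 0.09 ± 0.03 (edgeR adjusted p = 0.00590 and 0.0343, 0.0261 and 0.0431, and 0.00164 and 0.0439). Of these 3, Zfp275 and Zfp664 kept their call after Mettl3 KD in each fit that left out 1 library, and Zfp868 lost it without scramble replicate 1 or 2 or Mettl3 KD replicate 4. After Mettl14 KD the call of Zfp275 was lost without scramble replicate 1 or 3 or Mettl14 KD replicate 1 or 3. That of Zfp664 held only without scramble replicate 1, and that of Zfp868 only without Mettl14 KD replicate 1 or 2 and without Mettl3 KD replicate 2 or 4. Zfp428 rose by 0.24 ± 0.07 after Mettl3 KD (edgeR adjusted p = 0.0109) and was not called after Mettl14 KD (0.13 ± 0.07). Zfp40, a 16-finger member, was higher by 0.28 ± 0.09 after Mettl3 KD (edgeR adjusted p = 0.0208), a call lost without Mettl3 KD replicate 1 and without scramble replicate 1. Zfp239 was lower by 0.23 ± 0.07 after Mettl14 KD (edgeR adjusted p = 0.0206), a call lost without scramble replicate 2 or 3 or Mettl14 KD replicate 2.

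**Figure D3:**
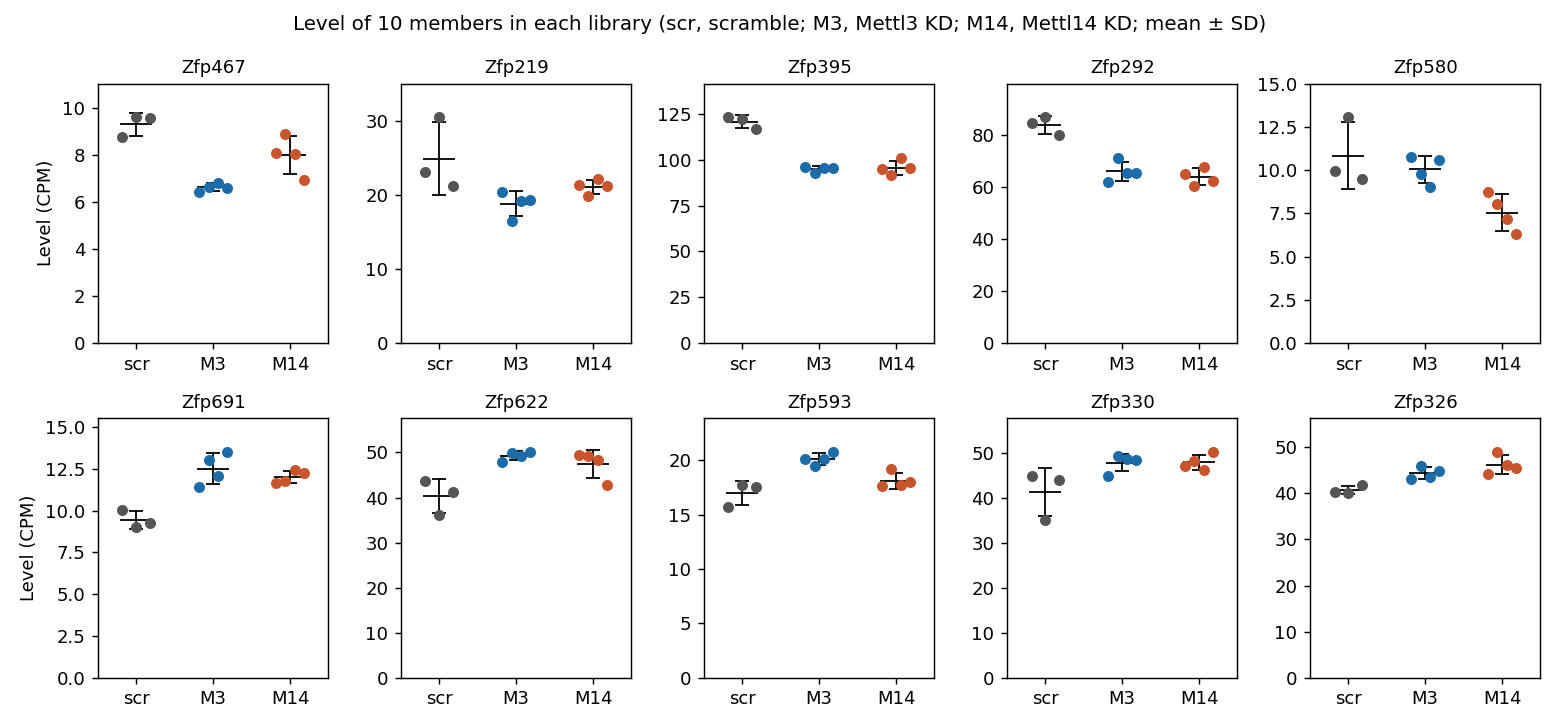
Level in CPM of 10 members in each library, by group: scr, scramble (n = 3); M3, Mettl3 KD (n = 4); M14, Mettl14 KD (n = 4); bars are the mean and SD, and each vertical axis starts at 0. Zfp395 and Zfp292 are lower in both KDs, Zfp467 is lowest after Mettl3 KD and Zfp580 after Mettl14 KD, and Zfp691 is higher in both.

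Of 113 members with the KRAB pattern, 6 were called higher and 8 lower after Mettl3 KD (12.4%), against 16 higher and 20 lower of 138 without the pattern (26.1%). After Mettl14 KD 4 of the 113 were called, all lower (3.54%), against 9 higher and 20 lower of the 138 (21.0%). By edgeR no KRAB member was called higher after Mettl14 KD, though 10 were higher in its unadjusted test at 0.05; neither DESeq2 nor limma-voom called any higher. The difference between the 2 sets was not tested. Over all genes tested the shares called were 31.3% and 20.9%. Members with the pattern were also lower in level, with a median of 14 CPM against 29.8 CPM. Lower genes gave fewer calls over all genes tested, but whether level accounts for the difference was not tested. At 20 CPM or more, 5 of 31 with the pattern were called after Mettl3 KD and none after Mettl14 KD (7 in edgeR's unadjusted test at 0.05, none by DESeq2 or limma-voom), against 27 and 22 of 92 without it. Under 20 CPM the counts were 9 and 4 of 82 with the pattern, and 9 and 7 of 46 without it. In both ranges of level the share called was lower with the pattern. The number of KRAB members called after Mettl3 KD was 8 without Mettl3 KD replicate 3 or scramble replicate 2, and 9 without Mettl3 KD replicate 1, Mettl3 KD replicate 2 or scramble replicate 1; after Mettl14 KD it was 7 without Mettl14 KD replicate 4.

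Among KRAB members, Zfp46 fell in both KDs. It stood at 14.9, 13.7 and 13.2 CPM in scramble, at 11.2, 11.6, 11.8 and 11.4 CPM after Mettl3 KD and at 12.2, 11.1, 11.9 and 11.5 CPM after Mettl14 KD. Both KD groups lay wholly below scramble, at -0.28 ± 0.07 and -0.26 ± 0.07 on the log2 scale (edgeR adjusted p = 0.00260 and 0.00806), and the call after Mettl14 KD was lost without scramble replicate 1 (-0.20). Zfp51 was lower by 0.24 ± 0.07 after Mettl14 KD (edgeR adjusted p = 0.0213) but not without scramble replicate 2 or 3 or Mettl14 KD replicate 1 or 2. Zfp82 and Zfp931 were higher after Mettl3 KD by 0.27 ± 0.09 and 0.24 ± 0.09 (edgeR adjusted p = 0.0253 and 0.0463), and neither call held when Mettl3 KD replicate 3 or 4 or scramble replicate 2 was left out. That of Zfp931 was also lost without scramble replicate 1 or 3 or Mettl3 KD replicate 2.

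Of 4 members known from imprinting or retroelement silencing, Zfp445, which keeps methylation at imprinted regions, was called higher after Mettl3 KD, and no other was called in either KD. With 4 members, 1 call is 25%, near the 31.3% of all genes tested. Zfp445 stood at 128, 111 and 125 CPM in scramble and at 128, 136, 135 and 130 CPM after Mettl3 KD (0.12 ± 0.04, edgeR adjusted p = 0.0307); its low library was scramble replicate 2, without which the difference was 0.06 and not called by edgeR (adjusted p = 0.163), nor was it without Mettl3 KD replicate 2 or 3. After Mettl14 KD 1 of the 4 passed edgeR's unadjusted test at 0.05, and neither DESeq2 nor limma-voom called any. Zfp809, which silences retroviruses that use a proline tRNA primer, was at 4.76, 5.20 and 5.34 CPM in scramble, at 4.97 to 6.50 CPM after Mettl3 KD and at 4.32 to 5.47 CPM after Mettl14 KD, with overlap throughout. Zfp57 and Zfp708, also on the list, did not meet the level rule.

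KRAB domains act through corepressors and heterochromatin proteins. Of 19 such genes tested, 2 were called higher and 4 lower after Mettl3 KD (31.6%, against 31.3% of all genes tested), and 1 higher and 2 lower after Mettl14 KD (15.8%, against 20.9%), with medians of -0.02 and 0.02. Trim28, the corepressor that KRAB domains bind, averaged 357 ± 7.48 (SD, n = 3) CPM in scramble, 337 ± 15.9 (n = 4) after Mettl3 KD and 339 ± 8.12 (n = 4) after Mettl14 KD and was not called (-0.08 ± 0.04 in each, edgeR adjusted p = 0.0855 and 0.147). Setdb1, which trimethylates histone H3 at bound sites, rose from 79.5, 74.3 and 87.8 CPM to 91.9, 98.5, 94.5 and 92.1 CPM after Mettl3 KD, with no overlap (0.23 ± 0.05, edgeR adjusted p = 0.000662). Pphln1, a subunit of the HUSH complex, was called higher in both KDs (0.19 ± 0.04 and 0.17 ± 0.04). Uhrf1 and Resf1 were called lower in both, and Atf7ip and Cbx5 were called lower after Mettl3 KD. Scramble replicate 2 of Uhrf1, at 181 CPM, lay within the range of both KDs, and that of Cbx5, at 356 CPM, within that of Mettl3 KD. Resf1 did not overlap, but scramble replicate 2 was its highest library, at 39.7 CPM against 35.3 and 35.2 CPM in the other scramble libraries. How many of these genes stayed called without scramble replicate 2 was not counted.

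The share of members called also differed with level. At 5 to 20 CPM, 14.1% of 128 members were called after Mettl3 KD against 28.3% of all genes tested in that range, at 20 to 50 CPM 19.8% of 86 against 36.6%, and at 50 CPM or more 40.5% of 37 against 44.8%. After Mettl14 KD the shares were 8.59% against 17.6%, 12.8% against 23.9% and 29.7% against 32.0%. The gap to other genes was thus wide among low and middle members and narrow among the highest. By number of fingers, 12 of 34 members with 1 to 4 fingers were called after Mettl3 KD (35.3%), 15 of 76 with 5 to 9 (19.7%) and 21 of 133 with 10 or more (15.8%); after Mettl14 KD the shares were 29.4%, 13.2% and 8.27%. Median levels fell over the same classes, from 40.1 to 23.2 and 17.1 CPM. Of 8 members with 0 fingers, 2 were called in each KD. The classes depended on the finger pattern. With a stricter pattern of fixed spacing, 7 of 32 members with 1 to 4 fingers were called in each KD (21.9%). With 0 fingers by that pattern, 10 of 27 were called after Mettl3 KD and 7 after Mettl14 KD. Over all genes tested the shares were 31.3% and 20.9%, and the differences were not tested.

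**Figure D4:**
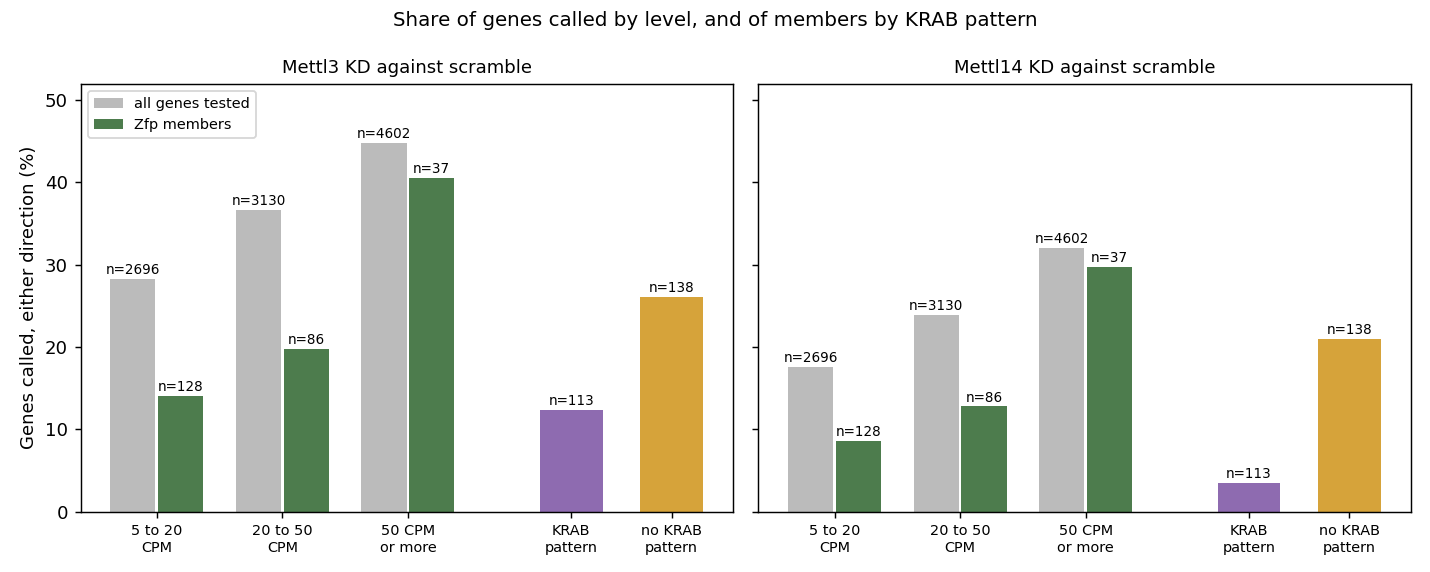
Share of genes called in either direction (%), after Mettl3 KD (left) and Mettl14 KD (right). Grey bars are all genes tested and green bars the members, in 3 ranges of mean level (CPM); purple and yellow bars are the members with and without the KRAB pattern; n is the number of genes. The green bar is lower than the grey in each range, and the purple bar lower than the yellow.

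Members with longer last exons tended to lower fold changes after Mettl3 KD, and so did members with longer transcripts. Spearman's correlation of log2 fold change with transcript length was -0.23 over the members after Mettl3 KD and -0.07 after Mettl14 KD. Over all genes tested with a reference transcript it was -0.12 and -0.06. The last exon was thus not told apart from the whole transcript. Over the 251 members, Spearman's correlation of log2 fold change with last exon length was -0.23 after Mettl3 KD and -0.11 after Mettl14 KD, against -0.11 and -0.06 over all 13731 genes tested with a reference transcript. All members share the same libraries, and the correlation after Mettl3 KD was -0.12 once the trend of each library with transcript length was removed. Of the 126 members at or above the median last exon length, 10 were called higher and 19 lower after Mettl3 KD, and 2 higher and 17 lower after Mettl14 KD. Of the 125 below it, 12 were higher and 9 lower, and 7 higher and 7 lower. At or above the median 23.0% and 15.1% were called, and below it 16.8% and 11.2%. Over all genes tested the shares called were 31.3% and 20.9%. Among the 187 members with GGACT in the last exon, 17 were called higher and 23 lower after Mettl3 KD and 7 higher and 22 lower after Mettl14 KD; among the 64 without it the counts were 5 and 5, and 2 and 2. The shares called were 21.4% and 15.5% with GGACT, and 15.6% and 6.25% without it. All of these lay below the shares of all genes tested, and the differences between the sets were not tested. The members with GGACT were higher in level, with a median of 23.6 CPM against 12.2 CPM.

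Set against each other, the KDs differed in few members. Higher after Mettl3 KD than after Mettl14 KD were 2 members and lower were 10, together 4.78%, against 8.10% of all genes tested (3.66% higher and 4.44% lower) and 10.4% of those at 5 CPM or more. Zfp827, which recruits the NuRD complex to telomeres, stood at 31.9, 29.6 and 32.2 CPM in scramble, at 25.9, 29.5, 27.1 and 27.7 CPM after Mettl3 KD and at 32.6, 35.0, 31.1 and 33.4 CPM after Mettl14 KD. The KD groups did not overlap, and they differed by -0.26 ± 0.05 (edgeR adjusted p = 0.00226). Zfp597 differed by -0.23 ± 0.05 (edgeR adjusted p = 0.00716): it fell from 31.1, 26.9 and 27.5 CPM to 22.2, 24.2, 24.2 and 24.2 CPM after Mettl3 KD (-0.27 ± 0.06), while at 27.5, 27.8, 27.4 and 28.7 CPM the Mettl14 KD libraries stayed within the scramble range.

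Zfp146, a protein almost wholly of fingers, differed in the other way: it rose after Mettl14 KD, from 89.1, 82.7 and 92.9 CPM to 99.8, 94.5, 99.7 and 96.5 CPM (0.15 ± 0.04, edgeR adjusted p = 0.0134), and its Mettl3 KD libraries, at 83.5, 87.4, 89.9 and 88.3 CPM, overlapped scramble. The KDs differed by -0.16 ± 0.04 (edgeR adjusted p = 0.00897). The KRAB member Zfp27 was called in neither KD against scramble, yet at 19.7, 18.5, 19.7 and 19.6 CPM after Mettl3 KD and 21.7, 24.1, 23.0 and 21.4 CPM after Mettl14 KD it lay on either side of the scramble values of 20.2, 21.3 and 20.2 CPM. The KDs differed by -0.22 ± 0.05 (edgeR adjusted p = 0.0112). Zfp827, Zfp597, Zfp146 and Zfp27 were the 4 members whose difference between the KDs was called in each fit that left out 1 library. The other 8 were Zfp652, Zfp516, Zfp467, Zfp946, Zfp950 and Zfp462, which were lower after Mettl3 KD, and Zfp580 and Zfp281, which were higher. The counts ranged from 0 to 6 higher and 5 to 14 lower when 1 library was left out. No library except scramble replicates 1 and 3 could be left out without moving 1 of the 2 counts by over 1.5 times; without scramble replicate 2 there were 6 higher and 14 lower.

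The estimated counts of a pair of closely related members, Zfp968 and Zfp969, moved in opposite ways between libraries. Zfp968 stood at 10.2, 15.6 and 10.6 CPM in scramble, at 7.03, 17.8, 13.6 and 18.6 CPM after Mettl3 KD and at 16.7, 8.73, 0.05 and 0.14 CPM after Mettl14 KD. Zfp969 stood at 22.4, 12.2 and 23.1 CPM, at 19.7, 12.4, 15.6 and 11 CPM and at 14.2, 22.3, 31.5 and 30.6 CPM in the same libraries. Where one was low the other was high, and their sum was 26.8 to 33.7 CPM in every library, with 31.3 ± 3.16 (SD, n = 3) CPM in scramble, 28.9 ± 1.502 (n = 4) after Mettl3 KD and 31.04 ± 0.35 (n = 4) after Mettl14 KD. Every 31-base word of the Zfp969 transcripts also occurs in Zfp968, and kallisto assigns reads by such words; whether reads were assigned to the wrong gene was not tested. Neither gene was called in any comparison, and the within-group SDs of 1.63 and 0.46 on the log2 scale were far above the member median of 0.07. Both were chosen for mention after their values were seen.

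**Figure D5:**
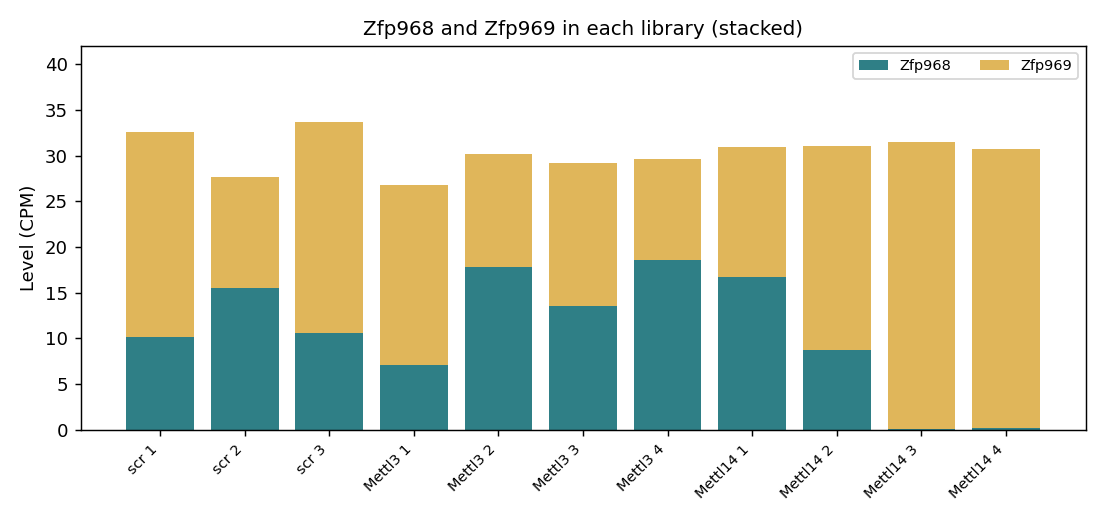
Level of Zfp968 (teal) and Zfp969 (yellow) in CPM, stacked, in each of the 11 libraries (scr, scramble). Zfp968 is almost absent in Mettl14 replicates 3 and 4, at 0.05 and 0.14 CPM, while the height of the full bar stays between 26.8 and 33.7 CPM.

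Shared sequence was common among the members. In 138 of the 251, more than 1% of the 31-base words occurred in another gene, with a median of 4.77% for members with the KRAB pattern and 0.558% for the others. The within-group SD on the log2 scale rose with it: its median was 0.07 over the 113 members with 1% or less, 0.08 over the 91 with over 1 to 10%, 0.09 over the 35 with over 10 to 50% and 0.11 over the 12 above 50%. In 93 members every estimate was a whole number to within 0.001 counts, and in 54 it was not whole in any library. Of the 93, 12 were called higher and 10 lower after Mettl3 KD (23.7%) and 5 higher and 11 lower after Mettl14 KD (17.2%); of the 54, 2 were higher and 5 lower (13.0%), and 1 higher and 2 lower (5.56%). Over all genes tested the shares called were 31.3% and 20.9%. The difference between these sets of members was not tested, and their levels were not matched. Zfp652, Zfp706, Zfp638 and Zfp963 are among the 54.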

How the data were processed

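The deposited table holds estimated counts per gene from kallisto, per the submitters' processing notes; those notes name no kallisto version, and which genome and annotation were indexed was not given in these sources. Messenger RNA of alphaTC1-6 cells was sequenced from stranded libraries, per the labels' protocols. Of the values, 11.6% were not whole numbers, and they were rounded before testing. Counts in rows without a matched symbol made up 0.518%. No column belonged to a sample outside the 11.

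All 11 libraries were fitted together with edgeR 4.0.16 in R 4.3.3: a quasi-likelihood F-test, robust, with TMM scaling, filterByExpr at a minimum count of 10, 1 mean per group and 8 residual degrees of freedom. Adjusted p-values are Benjamini-Hochberg values over 14133 genes, called at 0.05, and an SE is the log2 fold change divided by the root of F. Printed CPM are TMM-scaled, whereas the 5 CPM rule used plain CPM. The common biological coefficient of variation was 4.38%. Totals of 19576784 to 22406686 counts bound the precision of low members. Only the edgeR fit was tested on simulated counts, drawn around the real means with no outlying library.

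Members and gene lists were chosen with earlier results of these data known, and the RNA, chromatin and imprinting lists give no independent support. Named members are the 3 highest, the 3 on each side of 5 CPM, for each KD the 8 largest called changes in each direction without overlap, the 6 smallest adjusted p between KDs, and the 2 smallest per list and KD.

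Gene structure came from GENCODE M21 transcripts (GRCm38). The sequence window of 1 member is not reported here. A finger was C-x2-4-C-x12-H-x3-5-H in the translated coding sequence, and KRAB members were found by a sequence pattern that can miss diverged domains. Alternatives were DESeq2 1.42.0, limma-voom (limma 3.58.1), other scalings, no filter, each library left out, a replicate block, removal of the length trend, only the groups compared, and thresholds of 2 and 10 CPM. Figures used matplotlib 3.10.9.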

Additional observations from a re-analysis of the deposited data

Results flagged for a closer look

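In 6 of 94 groups of 4 libraries, over 47 genes checked, 1 library lay farther from the rest than Dixon's 95% limit allows; chance gives about 1 in 20. After Mettl14 KD, Zfp560 stood at 4.71 CPM in replicate 1 against 5.61 to 5.76 CPM in the others, and Zfp622 at 42.9 CPM in replicate 4 against 48.4 to 49.4 CPM. After Mettl3 KD, Zfp597 stood at 22.2 CPM in replicate 1 against 24.2 CPM in each of the others. Zfp217 stood at 48.2 CPM in the same library against 51.2 to 51.8 CPM. Zfp428 stood at 21.8 CPM in Mettl3 KD replicate 4 against 20.7 to 20.9 CPM, and Zfp27 at 18.5 CPM in Mettl3 KD replicate 2 against 19.6 to 19.7 CPM.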

How the results depend on the processing

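Among the named genes, no alternative reversed the direction of a call. With DESeq2 there were 13 members higher after Mettl3 KD and 13 lower after Mettl14 KD, 5 and 1 KRAB members called, 12 and 6 members with 10 or more fingers called, 18 members without KRAB called after Mettl14 KD, and 3 chromatin members lower there. With only the groups compared in the fit, 4 members were higher after Mettl14 KD, 8 were higher and 16 lower after Mettl3 KD than after Mettl14 KD, 7 KRAB members were called after Mettl3 KD, and after Mettl14 KD 19 members without KRAB were called, 2 RNA members were higher and 3 chromatin members lower; limma-voom also gave 3 of the last. With the replicate block, 5 members were higher after Mettl14 KD, 1 was higher and 6 were lower between the KDs, and after Mettl14 KD 17 members without KRAB were called, 2 RNA members were higher and 3 chromatin members lower. Same-numbered libraries had correlations of deviations of -0.16 to 0.11. No values for differently numbered libraries stood beside them, so they do not show whether the numbers pair the samples. The replicate block with the length trend removed gave 1 higher and 4 lower between the KDs, 18 without KRAB and 3 chromatin members lower after Mettl14 KD, and a Spearman correlation of -0.12 with last exon length after Mettl3 KD; the length trend alone gave 1 higher between the KDs and -0.12. A threshold of 10 CPM gave 1 higher between the KDs, and 2 CPM gave 7 KRAB members called after Mettl14 KD. The cause was not tested.

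Leaving out 1 library at a time gave 14 to 23 members higher after Mettl3 KD, 5 to 10 higher after Mettl14 KD, and 0 to 6 higher and 5 to 14 lower between the KDs. KRAB members called ranged from 8 to 14 after Mettl3 KD and from 3 to 7 after Mettl14 KD, RNA members higher after Mettl14 KD from 2 to 4, and chromatin members lower there from 3 to 6. Leaving Zfp968 and Zfp969 out of the members, an alternative chosen after seeing the data, changed none of the counts by over 1.5 times. Of the named genes, 10 of 33 calls after Mettl3 KD, 11 of 23 after Mettl14 KD and 8 of 14 between the KDs fell below the threshold when some library was left out. Low members limit what could be called.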

Other observations

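Other C2H2 families, taken by symbol at 5 CPM or more, gave 6 higher and 13 lower of 61 after Mettl3 KD (31.1%) and 2 higher and 6 lower after Mettl14 KD (13.1%), against 31.3% and 20.9% of all genes tested. Among them, of 10 Klf genes, a family of transcription factors with 3 fingers, 7 were called lower after Mettl3 KD and 4 after Mettl14 KD, with median log2 fold changes of -0.22 and -0.18; over all genes tested 15.8% and 10.8% were called lower. The number of Klf genes called lower without scramble replicate 2, the library with lung and blood markers, was not counted. No Klf gene was called higher by edgeR, DESeq2 or limma-voom, and none was higher in edgeR's unadjusted test at 0.05. Of 33 Zbtb genes, 5 were higher and 5 lower after Mettl3 KD (30.3%, near the share of all genes), and 1 was higher and 2 lower after Mettl14 KD (9.09%). Of 16 Zscan and Zkscan genes none was called by edgeR, DESeq2 or limma-voom in either KD, with 2 and 1 in edgeR's unadjusted test at 0.05. Without scramble replicate 2, edgeR called 1 of them after Mettl3 KD and none after Mettl14 KD. The families were set against the Zfp members after their values were seen, and the differences were not tested.

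Zfp genes lie in clusters, with 65 members on chromosome 7 and 33 on chromosome 17. On chromosome 7, 3 were higher and 6 lower after Mettl3 KD (13.8%), and 1 higher and 6 lower after Mettl14 KD (10.8%). On chromosome 17, 1 was higher and 2 lower after Mettl3 KD (9.09%) and 1 lower after Mettl14 KD (3.03%), with medians of -0.07 and -0.09. Over all members the shares called were 19.9% and 13.1%, and over all genes tested 31.3% and 20.9%. Of the 77 Zfp genes tested under 5 CPM, 2 were higher and 5 lower after Mettl3 KD (9.09%) and 1 higher and 4 lower after Mettl14 KD (6.49%).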
